A study of Mus musculus with 18 samples.

Results

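The levels of 10 genes of absorptive and ciliated epithelium, none of them a marker of fat cells, were followed in whole epididymal white adipose tissue (eWAT). They were 10 of the 16452 genes of the count table and were found by matching the table's Ensembl identifiers to the symbols Hnf4a, Vil1, Cdhr5, Mgam, Cdh16, Epcam, Cldn2, Cldn7, Krt8 and Foxj1 in GENCODE M21. They were chosen by their CPM in these libraries, in some of which they stood high, so their levels are given as a description without a test. The question put to them was whether the brush-border genes Vil1, Cdhr5 and Mgam and the cilia regulator Foxj1 stand high in the same libraries, as both would in efferent duct epithelium.

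All mice were wild-type C57BL/6 males of a generation labelled Fm. By the labels they descend through their sires from zygotes that had received, by microinjection, a negative control or one of the microRNAs miR-let-7d and miR-let-7e, and the treatment names carry the prefix IVF. They ate chow until week 6 and then a diet labelled LFD until week 15, while the age label gives 24 weeks, so the age at sampling is not clear. The 17 libraries comprised 5 controls (replicates 1 to 4 and 6), 6 let-7d and 6 let-7e libraries, each from 1 ug of total RNA sequenced on an Illumina NovaSeq. Control replicate 5 is not analysed here. Nothing in the labels says whether replicates came from separate litters or injections, so p-values measure the spread between these samples, which may be technical in part. By their identifiers the libraries fall into 2 series: replicates 1 and 2 of both microRNA groups are early, and the other 13 libraries, with all the controls, are late. Total counts ran from 12717365 in let-7d 6 to 28972306 in let-7d 1. Levels are CPM, counts scaled to a common library size with TMM factors, and their intervals are exact 95% Poisson intervals that cover counting error only. The tissue label held: the summed level of 14 adipocyte genes was 33438 to 67929 CPM in every library, lowest in let-7d 1 and next lowest in control 3 at 37947 CPM.

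Absorptive epithelium carries a brush border, a carpet of microvilli bundled by villin (Vil1), linked at their tips by protocadherins such as Cdhr5 and studded with digestive enzymes such as Mgam. Multiciliated cells instead build motile cilia under the control of the transcription factor Foxj1. In most epithelia a cell has one kind of apical surface, but the efferent ducts, which carry sperm from the testis to the epididymis beside this fat pad, are lined by absorptive and ciliated cells side by side. Kidney tubule and gut carry brush borders without motile cilia, and developing sperm build a flagellum with many of the axoneme proteins of cilia.

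The 10 genes were not high together in 1 set of libraries but in several combinations. In let-7d 1 and let-7d 5 brush-border, junction and cilia genes were high, Mgam in let-7d 5 excepted. Let-7e 1 had Cdhr5 and Foxj1 high with Cdh16, Epcam and Cldn2, at lower levels than those libraries. Vil1 at 2.91 CPM was above every control there but did not reach the rule given below, nor did Mgam at 1.15 CPM. In let-7d 3 the brush-border genes were high without Foxj1. In control 3 Cdh16, Epcam, Cldn7 and Krt8 were high without Vil1, Cdhr5, Mgam or Foxj1. In control 6 Foxj1 and Epcam were high without Vil1, Cdhr5 or Mgam. A gene was counted as high where its level plus 0.5 CPM was at least 4-fold the median library's level plus 0.5 CPM, a rule chosen after the values were seen. All 10 genes were high in let-7d 1, where 3.42% of all genes were, and 9 of 10 in let-7d 5, where 1.77% were. In let-7d 3 it was 7 of 10 genes against 0.419% of all genes. In control 3 it was 4 of 10 against 3.43%, in let-7e 1 it was 5 of 10 against 0.267%, in control 6 it was 2 of 10 against 3.26%, and in let-7e 4 it was 1 of 10 against 0.231%. None of the 10 was high in the other 10 libraries, where the share of all genes was 0.28%, 0.0425% and 0.0547% in control 1, 2 and 4, 0.134%, 0.195% and 0.134% in let-7d 2, 4 and 6, and 0.188%, 0.0365%, 0.0243% and 0.0243% in let-7e 2, 3, 5 and 6. Since these genes were picked for standing high in some libraries, no more is read from those shares. In bulk tissue, fewer cells of a type and less RNA per cell cannot be told apart.

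**Figure D1:**
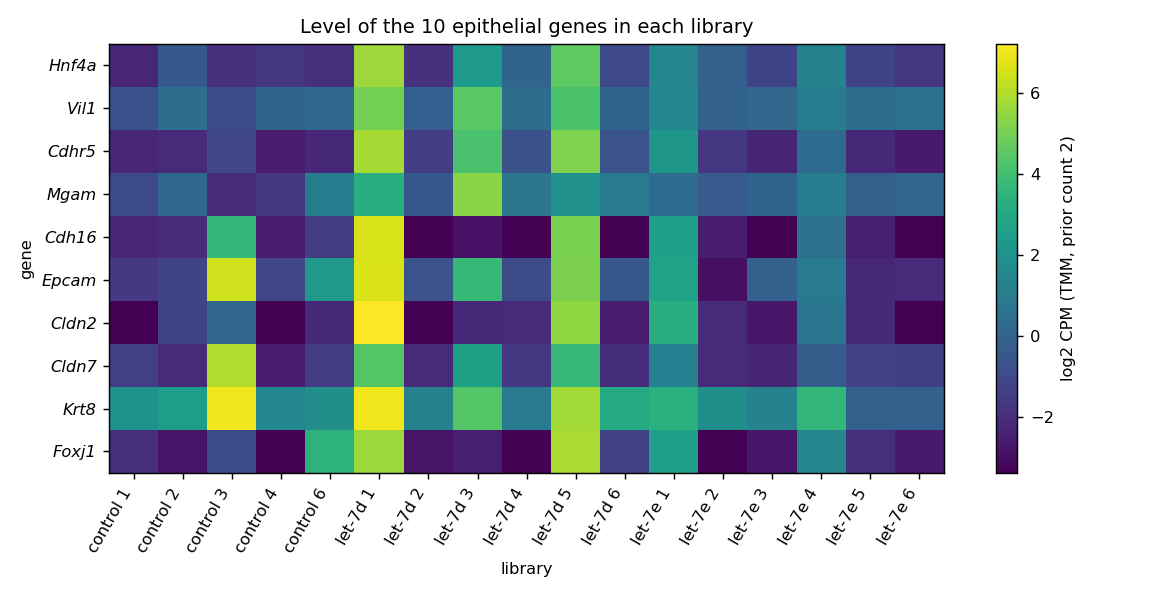
Level of each of the 10 genes (rows) in each of the 17 libraries (columns), as log2 CPM with TMM scaling and a prior count of 2 (colour). Every row is bright in let-7d 1, the rows of Hnf4a, Vil1, Cdhr5 and Mgam are bright in let-7d 3 while Foxj1, Cdh16 and Cldn2 are dark there, and in control 6 Foxj1 and Epcam are the rows at least 4-fold above the median library.

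Hnf4a, a nuclear receptor that drives genes of gut, liver and proximal kidney epithelium, lies at chr2:163506808-163572910 (GRCm38, plus strand). Its level was 51.4 CPM (49.0 to 53.9) in let-7d 1, 23.9 CPM (21.6 to 26.4) in let-7d 5 and 5.53 CPM (4.63 to 6.56) in let-7d 3. The next libraries were let-7e 1 at 2.65 CPM and let-7e 4 at 2.49 CPM, whose counting intervals overlap, and the other 12 libraries were under 1 CPM. The 5 controls were at 0.115, 0.626, 0.167, 0.218 and 0.164 CPM. No control reached the let-7d median of 3.23 CPM, which falls between let-7d 4 at 0.937 CPM and let-7d 3. Let-7d 2 at 0.180 CPM and let-7d 6 at 0.387 CPM lay within the control range.

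Vil1, the actin-bundling protein of microvilli (chr1:74409376-74435559, plus strand), had a different order. It stood at 31.9 CPM (30.1 to 33.9) in let-7d 1, 22.7 CPM (20.8 to 24.7) in let-7d 3 and 18.5 CPM (16.4 to 20.7) in let-7d 5, so that let-7d 3 exceeded let-7d 5. It was 2.91 CPM in let-7e 1 and 2.02 CPM in let-7e 4, with overlapping counting intervals, and 0.433 to 1.31 CPM in the other 12 libraries. The controls held 0.516, 1.25, 0.433, 0.943 and 1.02 CPM, and let-7d 2, 4 and 6 lay within that range at 0.767, 1.23 and 0.928 CPM. Exons of Vil1 overlap those of Usp37 on the opposite strand, and whether counting used the strand is not given in the sources used here, so reads of the 2 genes may be mixed.

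Cdhr5, a protocadherin that links microvilli (chr7:141269083-141276786, minus strand), was high in the same 3 libraries and in let-7e 1, and close to absent in most others. It stood at 54.9 CPM (52.5 to 57.5) in let-7d 1, 35.8 CPM (32.9 to 38.8) in let-7d 5 and 17.8 CPM (16.2 to 19.6) in let-7d 3. Let-7e 1 followed at 4.59 CPM and let-7e 4 at 1.16 CPM, and the other 12 libraries held 0.0691 to 0.541 CPM. The 5 controls were at 0.115, 0.144, 0.367, 0.0725 and 0.123 CPM, at most 11 counts each.

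Mgam, maltase-glucoamylase of the intestinal and renal brush border (chr6:40628831-40769123, plus strand), was the only one of the 10 with its highest level in let-7d 3. It reached 40.4 CPM (37.9 to 43.0) there, against 9.52 CPM (8.51 to 10.6) in let-7d 1 and 3.81 CPM (2.91 to 4.89) in let-7d 5. The let-7d 1 level was 0.236 of the let-7d 3 level (0.207 to 0.268), whereas for Vil1 it was 1.41 times as high (1.27 to 1.56) and for Cdhr5 3.08 times (2.77 to 3.43). The 3 brush-border genes thus stood in different proportions in the 2 libraries. In the other 14 libraries Mgam was 0.133 to 2.09 CPM, with control 6 at 2.09 CPM and let-7e 4 at 2.08 CPM at the top of that range.

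Across the 17 libraries Hnf4a, Vil1 and Cdhr5 ran alike and Mgam less so. On log2 CPM, Pearson r was 0.95 for Hnf4a with Cdhr5, 0.93 for Hnf4a with Vil1 and 0.94 for Vil1 with Cdhr5. For Mgam it was 0.86 with Vil1, 0.76 with Cdhr5 and 0.74 with Hnf4a, while Hnf4a with Cldn2 had 0.86. These are descriptions over libraries that share a few high points. The promoters of these 4 genes, which were high together in let-7d 3 and let-7d 1, are shown as RefSeq gives them on GRCm38.p6, from 250 bases before to 50 after the start and read along the gene's own strand. Hnf4a is shown at its second start, chr2:163546905-163547204 (plus strand), Vil1 at chr1:74409134-74409433 (plus), Cdhr5 at chr7:141276737-141277036 (minus) and Mgam at chr6:40628581-40628880 (plus). Capitals mark the letters CAAAGG, a core of HNF4 sites, and GTTAAT, part of a homeodomain site, on either strand.
Hnf4a: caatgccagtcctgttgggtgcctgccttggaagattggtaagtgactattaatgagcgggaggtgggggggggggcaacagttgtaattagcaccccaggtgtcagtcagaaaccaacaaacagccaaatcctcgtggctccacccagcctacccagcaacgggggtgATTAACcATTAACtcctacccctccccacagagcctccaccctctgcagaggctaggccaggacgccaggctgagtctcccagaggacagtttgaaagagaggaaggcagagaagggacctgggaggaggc
Vil1: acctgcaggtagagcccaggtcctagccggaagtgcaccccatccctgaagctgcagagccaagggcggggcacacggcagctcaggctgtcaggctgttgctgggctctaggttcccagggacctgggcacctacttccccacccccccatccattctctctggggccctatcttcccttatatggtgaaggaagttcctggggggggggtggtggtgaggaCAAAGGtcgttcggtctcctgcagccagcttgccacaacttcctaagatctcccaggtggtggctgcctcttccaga
Cdhr5: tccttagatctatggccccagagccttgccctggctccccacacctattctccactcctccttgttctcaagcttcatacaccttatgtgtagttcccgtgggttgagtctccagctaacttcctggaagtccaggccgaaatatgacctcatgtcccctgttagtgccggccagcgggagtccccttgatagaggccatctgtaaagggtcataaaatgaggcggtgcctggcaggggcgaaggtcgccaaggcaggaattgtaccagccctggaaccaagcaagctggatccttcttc
Mgam: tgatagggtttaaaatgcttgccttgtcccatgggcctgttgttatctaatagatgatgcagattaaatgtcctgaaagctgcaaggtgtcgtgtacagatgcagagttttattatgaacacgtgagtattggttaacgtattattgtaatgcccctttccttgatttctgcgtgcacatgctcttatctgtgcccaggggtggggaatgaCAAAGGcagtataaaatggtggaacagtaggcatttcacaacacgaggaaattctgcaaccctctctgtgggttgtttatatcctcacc

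CAAAGG began 27 bases before the start in Vil1 (-27) and 39 before it in Mgam (-39), and was not found in the Cdhr5 window. GTTAAT occurred at -81 and -74 of the second Hnf4a start, both on the strand opposite to the printed one. Of the 10 genes, 8 matched the promoter table with 10 windows, and 3 of the 10 windows held CAAAGG, the third being Hnf4a at its other start. GTTAAT was in 1 of the 10 windows. Of 32817 promoter windows of the same length, 20.33% held CAAAGG and 7.1% held GTTAAT. The other form of the HNF4 core, CAAAGT, was in 0 of the 10 windows and 14.36% of all windows, and TGTTTAC, a forkhead core, in 0 of 10 and 3.647%. GTTGCC, part of the motif of RFX factors, was in 2 of the 10 windows, both of Hnf4a, and in 12.52% of all windows. No 2 of these motifs overlapped in the windows shown. A match is a string of letters and does not show that a factor binds.

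The adhesion and junction genes split from the brush border by library. Cdh16, the kidney-type cadherin of tubular and ductal epithelium (chr8:104601911-104624396, minus strand), stood at 96.1 CPM (92.8 to 99.4) in let-7d 1, 33.8 CPM (31.0 to 36.7) in let-7d 5, 12.3 CPM (11.04 to 13.6) in control 3 and 6.04 CPM (5.07 to 7.14) in let-7e 1. In let-7d 3, where the brush-border genes were high, it had 1 count. It had 0 counts in let-7d 2, 4 and 6 and let-7e 3 and 6, which allows up to 0.138, 0.205, 0.236, 0.166 and 0.189 CPM in plain library totals.

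Cldn2, a claudin that forms cation pores in leaky absorptive epithelium (chrX:139800828-139811386, plus strand), followed Cdh16 without control 3. It stood at 149 CPM (145 to 153) in let-7d 1, 43.5 CPM (40.3 to 46.8) in let-7d 5, 9.61 CPM (8.38 to 10.98) in let-7e 1 and 1.62 CPM (1.08 to 2.34) in let-7e 4. In let-7d 3 it had 3 counts, and in control 3 it was 1.00 CPM. It was 0 to 0.337 CPM in the other 12 libraries, let-7d 3 among them. Over the 17 libraries r was 0.94 for Cdh16 with Cldn2 and 0.20 for Cdh16 with Mgam, the lowest of the 45 pairs.

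Epcam, an adhesion molecule of nearly all simple epithelia (chr17:87635979-87651129, plus strand), was high in 6 of the 17 libraries, more than any other of the 10. It stood at 97.6 CPM in let-7d 1, 86.5 CPM in control 3, 34.5 CPM in let-7d 5, 13.0 CPM in let-7d 3, 6.70 CPM in let-7e 1 and 4.91 CPM in control 6. The let-7d 1 level was 1.13 times that of control 3 (1.07 to 1.19). The other 11 libraries held 0.0351 to 1.85 CPM.

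Cldn7, a claudin of many epithelia that pairs with Epcam (chr11:69964779-69967885, plus strand), was highest in a control. It stood at 62.7 CPM (59.9 to 65.6) in control 3, 20.5 CPM (19.0 to 22.1) in let-7d 1, 13.2 CPM in let-7d 5 and 6.08 CPM in let-7d 3. The remaining controls held 0.286, 0.144, 0.0725 and 0.245 CPM for replicates 1, 2, 4 and 6.

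Krt8, a keratin of simple epithelia that mesothelium also makes (chr15:101996698-102004482, minus strand), had the highest resting level of the 10, at a median of 2.05 CPM per kb of exons against 0.0223 to 0.334 CPM per kb for the other 9. It was equal within counting error in control 3 at 126 CPM (122 to 130) and let-7d 1 at 126 CPM (122 to 129), then 53.5 CPM in let-7d 5 and 20.7 CPM in let-7d 3. The other 13 libraries ran from 0.83 to 12.5 CPM. The summed level of 11 mesothelial genes was 491 CPM in let-7e 4, where Krt8 was 12.5 CPM, and 428 CPM in let-7d 6, where it was 8.58 CPM, the 2 highest sums. In let-7e 5 and 6, where Krt8 was 0.846 and 0.83 CPM, the sums were 119 and 159 CPM, but in let-7e 1 Krt8 was 10.1 CPM beside a sum of 111 CPM. The part of mesothelial cells in the Krt8 levels was not tested.

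Foxj1, the regulator that turns on motile cilia genes and that developing sperm also express in mice (chr11:116330704-116335399, minus strand), was the only one of the 10 with its highest level in let-7d 5. It stood at 59.1 CPM (55.4 to 63.0) there, 49.4 CPM (47.0 to 51.8) in let-7d 1, 10.96 CPM (9.69 to 12.4) in control 6, 5.91 CPM (4.95 to 6.997) in let-7e 1 and 2.78 CPM (2.05 to 3.68) in let-7e 4. The other 12 libraries held 0 to 0.433 CPM. Control replicates 1 to 4 had 3, 1, 13 and 0 counts of Foxj1, so among the controls only replicate 6 stood apart.

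**Figure D2:**
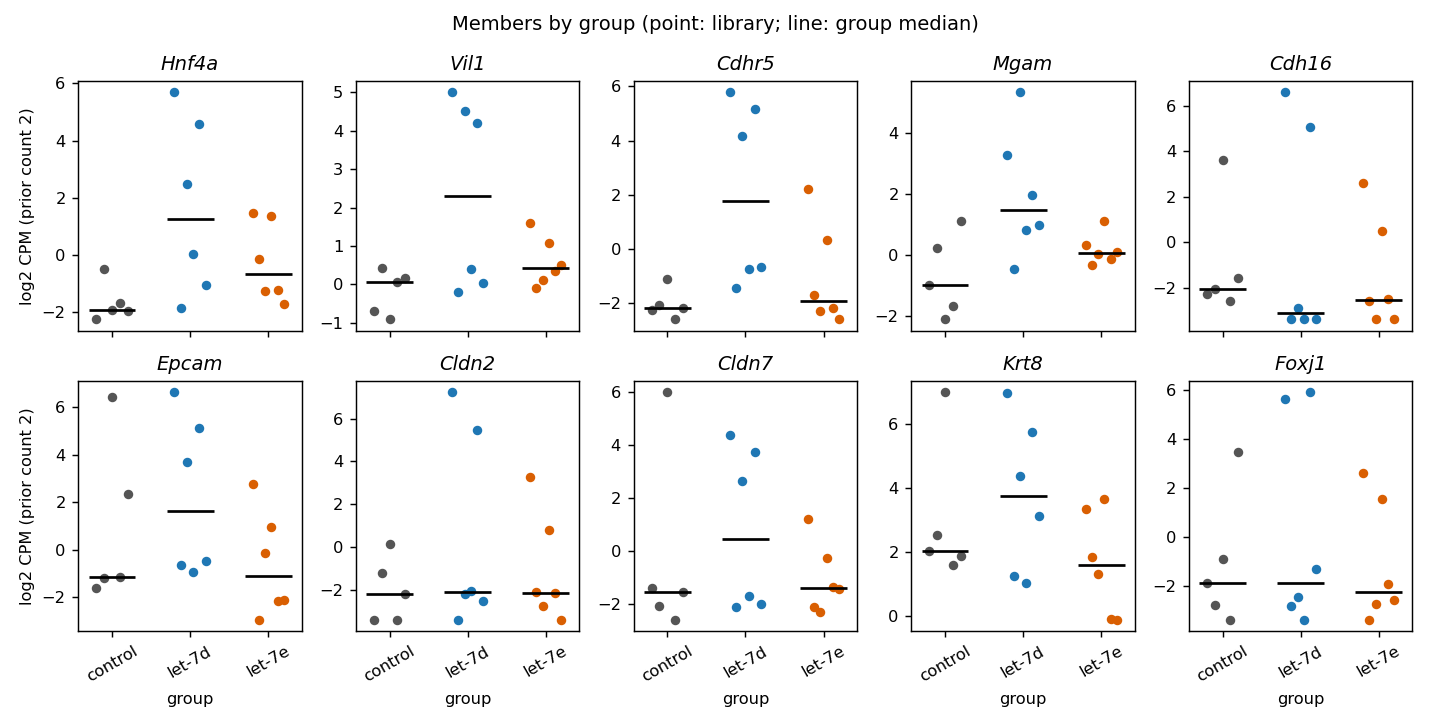
Log2 CPM (TMM, prior count 2) of each gene by group, with 1 point per library and a line at the group median. In every panel the groups overlap, and the high points are 1 to 3 libraries of a group, such as let-7d 1, 3 and 5 for Vil1 and control 3 alone for Cldn7.

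The answer to whether brush border and cilia stood high together differed between libraries. In let-7d 1 both were high, with 1685 counts of Foxj1 and 1090 of Vil1, so that Foxj1 made up 60.7% of the 2 (exact Clopper-Pearson 95% interval 58.9 to 62.5). In let-7d 5 there were 947 and 296 counts, or 76.2% (73.7 to 78.5). The share of Foxj1 against Vil1 was thus higher in let-7d 5 beyond counting error, which is a statement on these 2 genes in 2 single libraries.

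In let-7e 1 there were 134 counts of Foxj1 and 66 of Vil1, or 67.0% (60.02 to 73.5), and in let-7e 4 there were 48 and 35 counts, or 57.8% (46.5 to 68.6). By the 4-fold rule Foxj1 was high in both libraries and Vil1 in neither, while the brush-border gene Cdhr5 was high in let-7e 1.

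In 2 other libraries 1 gene was high without the other. Let-7d 3 had 541 counts of Vil1 and 2 of Foxj1, or 0.368% (0.0446 to 1.32). Control 6 had 268 counts of Foxj1 and 25 of Vil1, or 91.5% (87.7 to 94.4), and its Vil1 level of 1.02 CPM was within the range of the other controls. Per kb of exons, Foxj1 stood at 2.09 times Vil1 in let-7d 1, 4.33 times in let-7d 5, 0.00500 times in let-7d 3 and 14.5 times in control 6. Over the 17 libraries Pearson r of Vil1 with Foxj1 was 0.61 and Spearman's rho 0.40, given as a description.

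**Figure D3:**
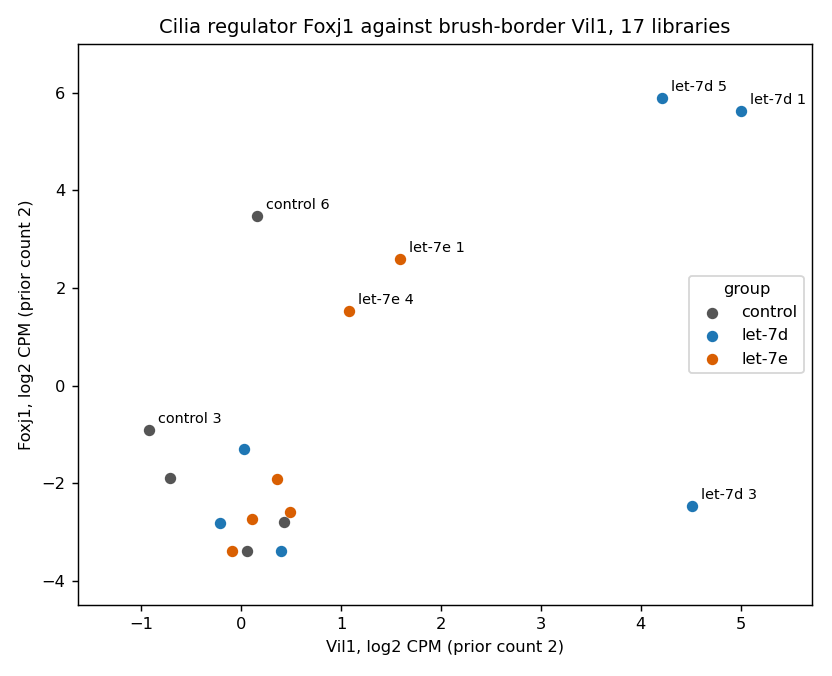
Foxj1 (vertical) against Vil1 (horizontal), both as log2 CPM with a prior count of 2, with 1 point for each of the 17 libraries coloured by group. Let-7d 1 and let-7d 5 lie at the upper right with both genes high, let-7d 3 at the lower right with Vil1 alone and control 6 at the upper left with Foxj1 alone.

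Other genes of these programs, from lists of textbook markers, were read in the same libraries with the same 4-fold rule. Genes nearly silent elsewhere may have passed the authors' CPM filter only through the libraries where they stood high. The counts of high genes in each list can be raised by that filter and are given as a description. Of 38 measured genes of the motile cilia axoneme, 33 were high in let-7d 1, 21 in let-7d 5, 30 in control 6, 2 in control 3 and in let-7e 1, 1 in let-7d 4, and 0 in the others, let-7d 3 and let-7e 4 among them. The 38 genes summed to 724 CPM in let-7d 1, 313 CPM in let-7d 5, 805 CPM in control 6 and 125 CPM in let-7d 3, and to 90.7 to 154 CPM in the other 13 libraries. The cilia genes were therefore high in the 3 libraries with the most Foxj1, and let-7d 3 was at the level of the rest.

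The ciliary genes stood in other proportions in control 6 than in let-7d 1. Dnaaf1, an assembly factor of axonemal dyneins, stood at 86.4 CPM in control 6 and 5.04 CPM in let-7d 1, and Tekt2, a tektin of the axoneme, at 52.4 and 5.92 CPM. Dnah5 and Dnah9, heavy chains of the outer dynein arms of motile cilia, stood at 0.327 and 0.859 CPM in control 6 against 38.5 and 28.4 CPM in let-7d 1 and 11.05 and 9.74 CPM in let-7d 5. All 13 spermatid genes measured were high in control 6, among them the protamine Prm2 at 331 CPM and the sperm lactate dehydrogenase Ldhc at 282 CPM. Prm2 and Ldhc were at 6.62 and 1.67 CPM in let-7d 1, with 4 of 13 spermatid genes high, and in let-7d 5 at 3.74 and 2.31 CPM, with 1 of 13. What the spermatid genes contributed to Foxj1 in control 6 was not tested.

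Among 7 measured regulators of motile cilia, 2 were high in let-7d 1, and 1 each in let-7d 5 and control 6. Myb, which acts early in multiciliated cells, stood at 19.4 CPM in let-7d 1 and 6.05 CPM in let-7d 5 but at 0.777 CPM in control 6 and 0.168 CPM in let-7d 3. Rfx2, a partner of Foxj1 that also serves sperm formation in mice, was instead highest in control 6, at 45.6 CPM against 14.8 CPM in let-7d 1 and 13.7 CPM in let-7d 5.

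Of 20 measured brush-border and endocytic genes, 9 were high in let-7d 1, 9 in let-7d 5, 5 in control 3, 3 in let-7d 3, 2 in let-7e 1, 1 in control 6 and 0 in the others. Ggt1, a brush-border peptidase, stood at 86.3 CPM in let-7d 1, 39.3 CPM in let-7d 5, 9.72 CPM in let-7d 3 and 3.10 CPM in control 3. Dab2, an adaptor of endocytosis, stood at 271, 131, 88.1 and 44.4 CPM in those libraries. Ezr was highest in control 3, at 214 CPM against 106 CPM in let-7d 1 and 32.3 CPM in the median library. The next genes were chosen after their values were seen. Besides Ezr and Ggt1, the genes of the list that were high in control 3 were Prom1 at 59.2 CPM, Espn at 51.2 CPM and Pdzk1 at 14.5 CPM. Cdhr2, the partner of Cdhr5 between microvilli, was highest in let-7d 3 at 24.8 CPM, with 10.2 CPM in let-7d 1 and 5.80 CPM in let-7d 5. Lrp2, the endocytic receptor megalin, was at 160 CPM in let-7d 1 and 42.5 CPM in let-7d 5 but 4.32 CPM in let-7d 3, and no other library was above 8.80 CPM. The 3 genes of the list that were high in let-7d 3 were Ggt1, Cdhr2 and Ush1c, a scaffold of microvillar links, at 1.97 CPM. The most abundant peptidases of the list were less than 4-fold from the median library there, with Enpep at 248 CPM (median 175), Ace at 145 CPM (121) and Mme at 59.8 CPM (60.1).

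Of 18 measured transport genes named for efferent ducts, 9 were high in let-7d 1, 3 in let-7d 5, 3 in control 3, 2 in control 6 and 0 in let-7d 3. Esr1, the estrogen receptor on which fluid uptake in mouse efferent ducts depends, stood at 138 CPM in let-7d 1 and 56.1 CPM in let-7d 5, against 29.8 CPM in let-7d 3 and at most 43.2 CPM in the 10 libraries where none of the 10 genes was high. Aqp1, a water channel that blood vessels also carry, was at 711 CPM in let-7d 1 and 952 CPM in let-7d 5, within the range of the other libraries.

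**Figure D4:**
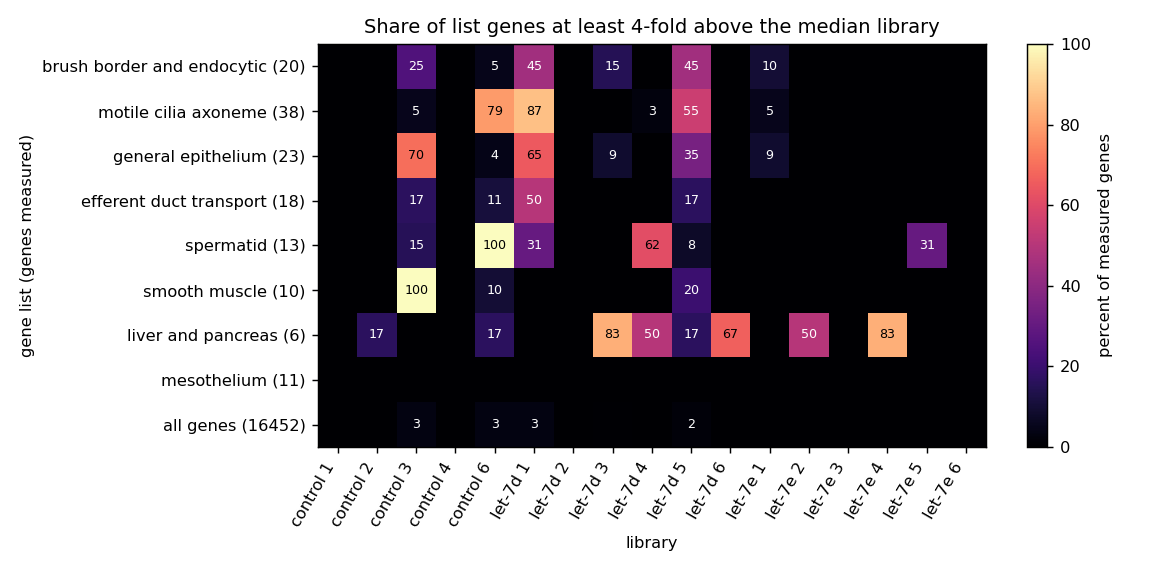
Percent of the measured genes of each list (rows, number measured in brackets) that were at least 4-fold above the median library in each library (columns). Cilia axoneme genes are marked in let-7d 1, let-7d 5 and control 6, spermatid genes most in control 6 and then let-7d 4, smooth muscle in control 3, liver and pancreas genes most in let-7d 3 and let-7e 4 and then in let-7d 6, let-7d 4 and let-7e 2, and mesothelium genes nowhere. The bottom row gives the share of all genes.

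Of 23 measured genes of general epithelium, 15 were high in let-7d 1, 8 in let-7d 5, 16 in control 3, 2 each in let-7d 3 and let-7e 1, 1 in control 6 and 0 in the others. Krt18, the keratin partner of Krt8, stood at 83.9 CPM in control 3, 71.1 CPM in let-7d 1 and 22.7 CPM in let-7d 5, but at 3.27 CPM in let-7d 3, the level of the median library, although Krt8 was 20.7 CPM there. Of 8 measured epithelial transcription factors, 6 were high in control 3, 5 in let-7d 1, 4 in let-7d 5 and 1 each in let-7d 3, let-7e 1 and control 6. Emx2, a homeodomain factor of the urogenital ducts, stood at 67.7 CPM in control 3, 14.7 CPM in let-7d 1 and 7.18 CPM in let-7d 5, and at 0.922 CPM in let-7d 3. Elf3, an ETS factor of epithelium, was instead highest in let-7d 1, at 12.5, 47.1, 15.9 and 2.10 CPM in those 4 libraries.

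Markers of single neighbouring organs set the libraries apart further. Control 3 held Akr1b7, a reductase abundant in mouse vas deferens, at 14043 CPM and Crisp1, a secreted protein of the epididymis, at 2927 CPM, with 10 of 10 smooth muscle genes high. Let-7e 1 held 17.3 CPM of Akr1b7 and 8.60 CPM of Crisp1. Let-7e 3, in which none of the 10 genes was high, held 19.9 CPM of Crisp1, and 3 of 5 epididymal genes were high there, the most of any library. In let-7d 1 and let-7d 5 both were at most 0.146 CPM, while Adam7, an epididymal surface protein, stood at 17.6 and 8.05 CPM against 0.233 CPM in control 3. Let-7d 3 held the apolipoproteins Apoa1 at 98.6 CPM and Apoa4 at 44.7 CPM, albumin (Alb) at 195 CPM and the fatty acid binding protein Fabp1 at 16.3 CPM. Alb reached 185 CPM in let-7e 4 too, with 5 of 6 liver and pancreas genes high in each of the 2 libraries. The same list had 4 of 6 high in let-7d 6 and 3 of 6 in let-7d 4 and in let-7e 2, where none of the 10 genes was high. Apoa4 was 2.31 CPM and Cdhr5 1.16 CPM in let-7e 4.

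For kidney and gut, few markers were in the table. Of 18 kidney markers 4 were measured, and Aqp2, a water channel of collecting duct and vas deferens, was the only one high anywhere, at 86.2 CPM in control 3. Of 13 gut markers 4 were measured, and 2 were high in let-7d 3 and 1 each in let-7d 4 and let-7e 4. Of 25 epididymal markers 5 were measured. Markers outside the table are not analysed here and are not read as 0. With these values the label of absorptive and ciliated epithelium was met in let-7d 1 and let-7d 5, by brush-border and cilia genes together. In let-7e 1 Foxj1 was high with Cdhr5 at lower levels, while Vil1 and Mgam did not reach the 4-fold rule. In let-7d 3 Vil1, Cdhr5 and Mgam were high without Foxj1, and in control 6 Foxj1 was high without those genes. The genes and the rule were chosen with these values known. The combinations therefore describe the libraries and do not test the label of absorptive and ciliated epithelium. No single organ is named for any library.

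The 2 libraries with both Vil1 and Foxj1 high could be compared gene by gene. Of all genes, 277 were high in both let-7d 1 and let-7d 5, and their level in let-7d 1 was at the median 2.43 times that in let-7d 5 (quartiles 1.89 and 3.003). The ratio was 3.43 (counting interval 3.16 to 3.71) for Cldn2, 2.85 (2.60 to 3.12) for Cdh16, 2.83 (2.58 to 3.10) for Epcam and 2.35 (2.18 to 2.53) for Krt8. Hnf4a at 2.15 and Mgam at 2.50 were between the quartiles, and Cldn2 was above them. Vil1 at 1.73 (1.52 to 1.97), Cldn7 at 1.56 (1.33 to 1.83) and Cdhr5 at 1.54 (1.40 to 1.69) lay below the lower quartile.

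Foxj1 departed from the rest. Its ratio was 0.835 (0.771 to 0.905), and only 6 of the 277 genes (2.17%) had a lower one. The 21 axoneme genes that were high in both libraries had ratios of 1.61 to 3.52 with a median of 2.77, and none was below 1. Foxj1 was thus higher in let-7d 5 while every one of these 21 axoneme genes was higher in let-7d 1. Myb, at 3.20, also followed the axoneme genes. This is a comparison of 2 libraries, and the interval covers counting error only.

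**Figure D5:**
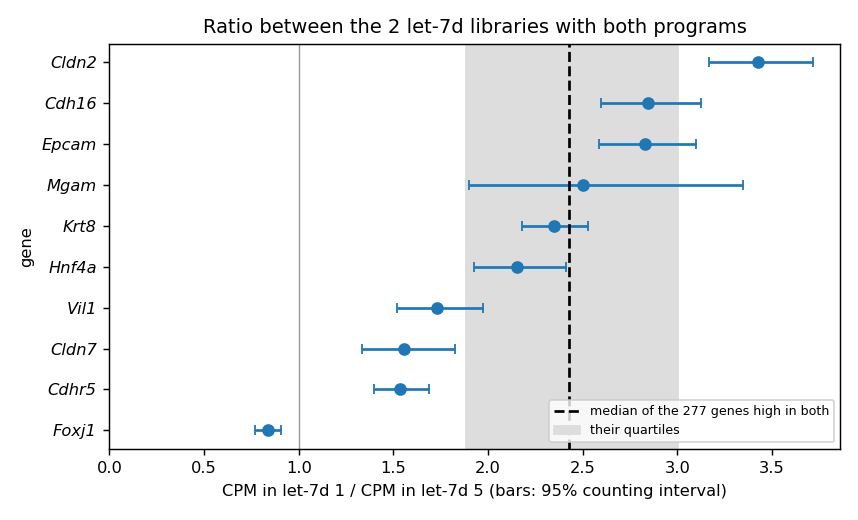
Level in let-7d 1 divided by level in let-7d 5 for each of the 10 genes (points, with 95% counting intervals), on a linear axis. The dashed line is the median of the 277 genes high in both libraries and the grey band their quartiles, 1.89 to 3.003. Foxj1 is the only point left of 1.

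Leaving the 10 themselves out, the genes whose log2 CPM over the 17 libraries was most like the mean of the 10 were led by Ggt1 (Pearson r 0.97) and Slc7a9 (0.96), a subunit of a cystine transporter. Next came Myo15b, Elf3, Tm4sf4 and Prr15l at 0.95, Akr1c19, the desmosomal cadherin Dsg2 and the chloride exchanger Slc26a3 at 0.94, and Slc6a20a, Ush1c, Slc30a2, Dnah5, B4galnt3 and Ano9 at 0.92 to 0.93. Slc7a9 stood at 50.4 CPM in let-7d 1, 17.7 CPM in let-7d 5, 3.13 CPM in let-7e 1 and 1.84 CPM in let-7d 3, and had at most 0.578 CPM elsewhere. Those most like Vil1 were the microvillar myosin Myo7b (0.94), Entpd8, Ush1c and B4galnt2 (0.92), Tm4sf4 (0.91) and Pklr (0.90). Myo7b stood at 12.7 CPM in let-7d 1, 6.55 CPM in let-7d 5 and 5.74 CPM in let-7d 3. Those most like Foxj1 were Slc30a3 (0.95), Acsbg1 and Mapk15 (0.94), and Dnah9, Dcdc2a and Dnah10 (0.93). Dcdc2a, a doublecortin-domain gene, stood at 229 CPM in let-7d 1, 61.6 CPM in let-7d 5, 15.1 CPM in let-7e 1 and 1.51 CPM in control 6. Several of these genes are also in the lists above, and the likeness rests on the few libraries in which all are high.

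In the let-7d libraries the SD of each of the 10 genes was larger than its mean. Vil1 averaged 12.7 ± 13.5 CPM (SD, n = 6) in let-7d, 0.833 ± 0.348 CPM (SD, n = 5) in controls and 1.54 ± 0.786 CPM (SD, n = 6) in let-7e libraries. Foxj1 averaged 18.1 ± 28.1, 2.32 ± 4.83 and 1.496 ± 2.42 CPM in the same order. Cldn7 averaged 6.71 ± 8.49 CPM in let-7d and 12.7 ± 27.9 CPM in controls. At least 10 CPM was reached by 3 of 6 let-7d libraries for Vil1, Cdhr5, Epcam and Krt8, 2 of 6 for Hnf4a, Cdh16, Cldn2, Cldn7 and Foxj1, and 1 of 6 for Mgam. Among the let-7e libraries only Krt8 reached it, in 2 of 6, and among the controls 1 library did so for each of Cdh16, Epcam, Cldn7, Krt8 and Foxj1.

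In let-7d against control, edgeR's quasi-likelihood test called 0.0% of the 16452 genes in either direction and 0 of the 10, at an adjusted p threshold of 0.05, with 1676 genes (10.2%) under an unadjusted p of 0.05. These contrasts used the values by which the 10 were picked and are given as a description. The log2 fold change was 6.00 (SE 1.53) for Cdhr5, 4.99 (SE 1.35) for Hnf4a, 3.78 (SE 1.02) for Mgam and 3.73 (SE 0.953) for Vil1, each with an adjusted p of 0.456 in edgeR. The level was above every control in 5 of 6 let-7d libraries for Cdhr5, 4 of 6 for Hnf4a and 3 of 6 for Mgam and Vil1. For Cdhr5, let-7d 4 and let-7d 6 had 7 counts each, and their counting intervals overlapped that of control 3. For Hnf4a, let-7d 4 had 13 counts, and its counting interval overlapped that of control 2. The change was 4.91 (SE 1.92) for Cldn2, 2.48 (SE 1.92) for Foxj1 and 1.59 (SE 1.85) for Cdh16. Krt8 at -0.29 (SE 1.24), Epcam at -0.64 (SE 1.54) and Cldn7 at -1.46 (SE 1.61) had the other sign. The median of the 10 was 3.10, beside -0.04 over all genes.

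The DESeq2 Wald test called 7 genes higher (0.0442% of those with an adjusted p) and 3 lower (0.0189%) in this contrast. Among the 7 were Cdhr5 (adjusted p = 0.0123), Hnf4a (0.0123), Vil1 (0.0176) and Mgam (0.0344), and it gave Cdh16, Foxj1 and Cldn2 no p. For no gene of the 10 did the let-7d libraries lie wholly above or below the controls, as they did for 0.176% and 0.34% of all genes. The same held between let-7e and control, where 0.249% and 0.383% of genes lay wholly above or below, and between let-7e and let-7d, with 0.134% and 0.103%.

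The fold changes moved when libraries were left out. Without let-7d 1 and 5, Cdhr5 was 4.74 (SE 1.46), Vil1 2.99 (SE 0.904), Mgam 3.88 (SE 1.07) and Hnf4a 2.79 (SE 1.03). Without let-7d 1, 3 and 5 and control 3 and 6, a setting chosen after the data were seen, Vil1 was 0.03 (SE 0.538), Hnf4a 0.42 (SE 1.14), Cdhr5 1.32 (SE 1.59) and Mgam 1.37 (SE 0.573). Without control 3, Cldn7 became 4.58, Epcam 2.99 and Krt8 2.56, and Cdh16 became 5.67. Without control 6, Foxj1 became 6.09, and without let-7d 3 Mgam became 1.95. In the late libraries alone Vil1 was 3.70 (SE 0.822), Hnf4a 4.87 (SE 1.16) and Mgam 3.91 (SE 1.04), while Cdhr5, Cdh16, Foxj1 and Cldn2 were removed there by the filter on low counts.

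In let-7e against control, edgeR called 0.0% of genes and 0 of the 10, with 1729 genes (10.5%) under an unadjusted p of 0.05. The log2 fold change was -4.99 (SE 1.89) for Cldn7, -4.63 (SE 1.81) for Epcam and -2.96 (SE 1.28) for Krt8, which became 1.03, -1.01 and -0.13 without control 3. Foxj1 was -1.37 (SE 2.02), which became 2.24 without control 6. Hnf4a was 1.55 (SE 1.27), Cdhr5 1.43 (SE 1.55), Mgam 0.75 (SE 0.986), Vil1 0.70 (SE 0.897), Cldn2 0.58 (SE 2.06) and Cdh16 -2.75 (SE 2.07). DESeq2 called 0 genes higher and 15 lower (0.0987%), none of them among the 10.

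In let-7e against let-7d, edgeR called 0.0% of genes and 0 of the 10, with 1097 genes (6.67%) under an unadjusted p of 0.05. This contrast shares its let-7d libraries with the first one. All 10 log2 fold changes were below 0, from -4.57 (SE 1.27) for Cdhr5 to -2.67 (SE 1.20) for Krt8, with a median of -3.69 beside -0.01 over all genes. DESeq2 called 11 genes higher (0.0901%) and 3 lower (0.0246%), and Vil1 and Cdhr5 were among the 3, each at an adjusted p of 0.0424. Without let-7d 1, 3 and 5 and control 3 and 6, Vil1 became 0.67, Hnf4a 1.16, Cdhr5 0.73, Epcam 1.29 and Krt8 0.22, while Mgam stayed below 0 at -0.22. The other 4 genes were removed there by the filter on low counts.

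The wider lists moved likewise by library and had no called gene in edgeR in any of the 3 contrasts. The 38 cilia axoneme genes had a median log2 fold change of -0.76 in let-7d against control, with 14 above 0 and 24 below, and of -2.59 in let-7e against control, with 37 below 0. The spermatid list, high in control 6, had medians of -3.07 and -4.80. The 20 brush-border genes had medians of 0.23 and -0.04, with 16 and 10 above 0. Foxj1 in let-7d against control, at 2.48, thus had the other sign from the median of the axoneme genes. Both Foxj1 and the axoneme genes were high in control 6, and without that library Foxj1 became 6.09.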

How the data were processed

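RNA of whole eWAT was sequenced for 17 libraries. The deposited counts are raw whole reads for each Ensembl gene. Per the file headers the authors kept genes by CPM, with a minimum that is not given in the sources used here. Alignment used STAR and GRCm38.p6, per the submitters' processing notes; the counting tool and its strand setting are not given in the sources used here. A deposited RPKM table was not used, because the gene lengths it implies differ between libraries.

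Symbols, positions and exon lengths came from GENCODE M21; 16438 identifiers had a symbol and 14 had none. Counts were fitted in R 4.3.3 with edgeR 4.0.16 (TMM, quasi-likelihood test, two-sided, Benjamini-Hochberg over 16452 genes), with group and identifier series as terms over all 17 libraries. The filter on low counts removed 0 genes, and the common biological coefficient of variation was 0.36. DESeq2 1.42.0 was an alternative. The 10 genes, the 17 marker lists and the alternatives were chosen with earlier results of these data known. Genes named from a list were its 6 with the highest mean CPM, and genes named for likeness were the 15 or 6 with the highest Pearson r and a mean of at least 1 CPM; others were chosen after their values were seen. Log2 CPM has a prior count of 2. The fit was tested on simulated counts. No 2 libraries of a group were duplicates, the least different being let-7d 3 and 6 (chi-square over its degrees of freedom 14.6). Total counts of 12717365 to 28972306 set the precision, and 3 counts were taken as the most that a count of 0 allows.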

Additional observations from a re-analysis of the deposited data

Results flagged for a closer look

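In 17 of the 30 combinations of gene and group, the highest library stood apart from the rest of its group by more than a gap test allows. For normally distributed values chance gives about 1 in 20. The test was run on CPM without logs, which are skewed here, so that rate does not carry over. Since the genes were also picked for standing high in some libraries, no more is read from the 17 combinations.

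Of these, 5 were in control 3. They were Cldn7 at 62.7 CPM, with the next control at 0.286 CPM, Cdh16 at 12.3 CPM (next 0.245), Krt8 at 126 CPM (next 5.73), Epcam at 86.5 CPM (next 4.91) and Cdhr5 at 0.367 CPM (next 0.144), the last from 11 counts. In control 6 it was Foxj1 at 10.96 CPM (next 0.433), and in control 2 Hnf4a at 0.626 CPM (next 0.218), from 13 counts.

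Among the let-7d libraries, let-7d 1 stood apart for Cldn2 at 149 CPM (next 43.5), Cdh16 at 96.1 CPM (next 33.8) and Epcam at 97.6 CPM (next 34.5), the next library being let-7d 5 each time. Let-7d 3 stood apart for Mgam at 40.4 CPM (next 9.52).

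Among the let-7e libraries, let-7e 1 stood apart for 5 genes. They were Cldn2 at 9.61 CPM (next 1.62), Cdh16 at 6.04 CPM (next 1.33), Cdhr5 at 4.59 CPM (next 1.16), Epcam at 6.70 CPM (next 1.85) and Cldn7 at 2.20 CPM (next 0.752), with let-7e 4 next each time. Let-7e 4 stood apart for Mgam at 2.08 CPM (next 1.15).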

How the results depend on the processing

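The number of genes called by edgeR at an adjusted p of 0.05 was 0 in each of the 3 contrasts under every edgeR setting run, leaving out each library in turn included (0 to 0 calls). The DESeq2 Wald test called 10 genes in let-7d against control, 15 in let-7e against control and 14 in let-7e against let-7d; the cause of the difference was not tested. With the replicate number as a block (replicate block) and the series term, edgeR called 0 genes, and the sign in let-7d against control turned for Cdh16 (-3.11) and Foxj1 (-2.01), and Cldn2 went from 4.91 to 0.45. The numbers are not taken to pair libraries: of 16 same-number pairs 6 had a correlation of deviations over 0.1, the range was -0.33 to 0.50, and 3 of 17 libraries were most like a library of their own number. Of 696 fold changes of the 10 genes under alternatives, 654 moved by less than the spread used to judge them and 42 by more. The single libraries behind most of these are named beside the fold changes. Plain library totals in place of TMM raised all levels in let-7d 1 by 17.8% and left let-7d 1 and let-7d 5 as the 2 highest libraries for 5 of 10 genes. With 2 CPM in place of 0.5 CPM in the 4-fold rule, chosen after the data were seen, the axoneme genes high in let-7d 5 numbered 6 in place of 21, and the general epithelium genes high in let-7d 1 numbered 9 in place of 15. Low levels, such as the 0 to 13 counts of Foxj1 outside 5 libraries, are limited by depth.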

Other observations

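Genes outside the 10 set let-7d 3 apart from let-7d 1 in the same direction as Mgam. Pigr, the receptor that carries immunoglobulins across mucosal epithelium, stood at 43.4 CPM in let-7d 3, 3.46 CPM in let-7d 1, 2.06 CPM in let-7d 5 and 0.167 CPM in control 3. The mucin Muc2 stood at 6.50 CPM in let-7d 3 and 2.11 CPM in let-7d 1. Pigr was chosen after its values were seen.

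Genes of the testis supporting cells and ducts also differed. Sox9, a factor of Sertoli cells and of several duct epithelia, stood at 63.7 CPM in let-7d 1, 21.3 CPM in let-7d 5, 9.96 CPM in let-7e 1 and 10.1 CPM in control 3, with a median library of 3.39 CPM. Cldn11, a claudin of Sertoli cell junctions, was, like Foxj1, higher in let-7d 5 (17.6 CPM) than in let-7d 1 (8.70 CPM). It stood at 5.69 CPM in control 6, 4.11 CPM in let-7e 4, 4.01 CPM in control 1 and 2.49 CPM in let-7e 2, the last 2 with at most 3 counts of Foxj1, and at 0.309 CPM in let-7e 1, where Foxj1 was 5.91 CPM. Its ratio of let-7d 1 to let-7d 5 was 0.494. The mesothelial gene Upk3b was low where the duct genes were high, at 4.63 CPM in let-7d 1, 10.7 CPM in let-7d 5 and 15.3 CPM in control 3 against a median of 63.0 CPM, but also at 12.3 CPM in let-7e 5, where none of the 10 genes was high. Spermatid genes were high in let-7d 4 as well, 8 of 13, with Foxj1 at 0 counts there, and in let-7e 5, 4 of 13, with 4 counts of Foxj1.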
